A study of Mus musculus with 8 samples.

Results

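Early risers were genes whose transcripts stood at least 2-fold higher at 6h than at 0h in mouse leukaemia cells with an inducible gene for the transcription factor KLF4. Levels are given as CPM, the counts scaled to the gene total of each library. A gene was taken when it was protein-coding, had over 3 counts at 0h in sum, a 6h mean of at least 3 CPM, a ratio of (6h + 0.5) to (0h + 0.5) CPM of at least 2, and both 6h libraries above both 0h ones. This held for 85 of 9897 protein-coding genes with a 6h mean of at least 3 CPM, or 0.859%. Of these, 12 were left out by name (Klf, Itg, S100, Slc7 and Tubb genes, Ahnak, Lsp1 and Trib3), which left 73 of 47069 gene rows. The genes were selected on their measured CPM at 0h and 6h, so the values at 0h and 6h describe them and test nothing. The question examined is which of them went on rising after 6h and which fell back.

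The study sequenced RNA of GFP-positive MLL-AF9 leukaemia cells, labelled TetO-Klf4-AML, that were sorted from leukaemic mice. MLL-AF9 is a fusion oncogene of acute myeloid leukaemia, and the TetO promoter lets doxycycline switch on the Klf4 transgene. All groups carry both, have bone marrow as the tissue and C57BL/7 as the labelled strain. They differ by the time point, 0h, 6h, 12h or 24h, with 2 libraries each. What the hours are counted from, the age of the mice and whether replicates came from separate mice are not in the labels. No doxycycline control lacking the transgene was analysed here, so an effect of the drug or of time cannot be told apart from one of Klf4. Since replicates may be technical, p-values cover the spread between libraries and no more.

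Libraries held 20394546 to 26041347 gene counts, so that 3 counts amount to 0.115 to 0.147 CPM. Klf4 itself stood at 2.65 and 4.27 CPM at 0h, 152 and 149 CPM at 6h, 116 and 113 CPM at 12h, and 78.0 and 80.0 CPM at 24h. The induced gene was therefore highest at 6h, with no overlap between any of the times. The 6 markers of leukaemia and myeloid progenitors, among them Hoxa9 and Mpo, summed to 1206 to 1295 CPM in all libraries. Markers of erythroid cells and stroma summed to at most 0.845 and 0.467 CPM, with Car1 at 0 in all libraries. The summed level of 6 neutrophil markers was 73.5 to 74.5 CPM at 0h and 119 to 129 CPM at 24h. Of these, Ly6g rose from a mean of 3.49 to 39.5 CPM and Cebpe from 61.3 to 69.2 CPM. Camp, Ltf and Mmp9 were also higher at 24h, and Mmp8 was lower (2.31 and 1.52 CPM). The 6 T and NK cell markers summed to 4.58 to 5.25 CPM at 0h and 11.6 to 11.7 CPM at 24h. Nearly all of this was Nkg7, with Cd3e, Cd3g and Gzma at 0. For 6 monocyte markers the sums were 218 to 225 CPM at 0h and 190 to 194 CPM at 24h. They did not move together. Adgre1 (mean of 64.6 CPM at 0h and 41.5 CPM at 24h), Lyz2 and Ccr2 were lower at 24h. Cd68 (9.13 and 16.7 CPM), Cd14 and Csf1r were higher. The 5 megakaryocyte markers gave 13.0 to 13.1 and 8.06 to 9.19 CPM. For the 4 endothelial ones the sums were 178 to 180 and 141 to 147 CPM, nearly all Pecam1 with Kdr at 0. The 5 neuronal ones gave 0.846 to 1.03 and 2.42 to 2.69 CPM, with Snap25 and Rbfox3 at 0. Of these, Stmn2 rose from a mean of 0 to 1.63 CPM and Map2 to 0.0602 CPM, while Syp went from 0.938 to 0.864 CPM. The part of these shifts in the results was not tested.

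KLF4 is a zinc finger protein that binds GC-rich DNA with a CACCC core and can activate or repress transcription. In the blood it is known as a factor of monocyte differentiation, and it restrains proliferation in several cell types. Genes that respond to a transcription factor within hours include direct targets and genes set off by the factor's first products, and levels of RNA alone do not separate them. Several genes below belong to the integrated stress response, in which the factor ATF4 raises genes of amino acid uptake and synthesis.

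The promoters were examined because a common rise could go with common sequence. RefSeq windows (build GRCm38.p6, the coordinates of mm10) were given for 55 of the 73 genes, and the 250 bases upstream of each start were searched. CACCC, on either strand, was in 46 of 55 genes (83.6%), beside 60.4% of the protein-coding genes of at least 3 CPM at 6h and 54.5% of all genes with a window. GGGNGTGG, a KLF4-type site, was in 18 of 55 (32.7%), beside 24.1% and 17.9%. With T or G at N that motif contains the reverse complement of CACCC, so the counts overlap. The windows of the early risers were also richer in G and C, with a median of 63.8% against 60.0% for the expressed coding genes and 52.4% for all, and the part of base composition in these shares was not tested. TGATGNAA, an element of the kind ATF4 binds, was in 1 of 55 genes, Nupr1 (1.82%, beside 2.41% and 3.91%). A match is a stretch of letters and shows no binding.

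Examples of 5 courses after 6h are shown, taken from windows that share at most 11 bases with an annotated exon. Capitals mark every match to CACCC or GGGNGTGG on either strand, 5′ to 3′ toward the start site. Amigo2 was higher at 12h and level after it, Extl1 was higher at each time, E2f2 was higher at 12h and then lower, Kcnn4 stayed near its 6h level, and Nlrc3 fell back.
Amigo2 (chr15:97247288-97247537, minus strand): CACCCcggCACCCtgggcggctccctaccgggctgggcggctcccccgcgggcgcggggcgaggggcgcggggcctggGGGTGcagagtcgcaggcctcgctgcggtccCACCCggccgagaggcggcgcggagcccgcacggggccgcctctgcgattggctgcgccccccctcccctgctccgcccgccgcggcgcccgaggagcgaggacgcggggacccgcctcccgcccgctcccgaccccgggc
Extl1 (chr4:134372548-134372797, minus strand): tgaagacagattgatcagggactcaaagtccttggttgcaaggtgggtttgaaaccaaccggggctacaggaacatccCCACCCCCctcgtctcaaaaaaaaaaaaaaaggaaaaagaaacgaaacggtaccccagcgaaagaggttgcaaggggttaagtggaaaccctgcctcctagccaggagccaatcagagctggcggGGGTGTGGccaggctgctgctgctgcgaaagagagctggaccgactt
E2f2 (chr4:136172024-136172273, plus strand): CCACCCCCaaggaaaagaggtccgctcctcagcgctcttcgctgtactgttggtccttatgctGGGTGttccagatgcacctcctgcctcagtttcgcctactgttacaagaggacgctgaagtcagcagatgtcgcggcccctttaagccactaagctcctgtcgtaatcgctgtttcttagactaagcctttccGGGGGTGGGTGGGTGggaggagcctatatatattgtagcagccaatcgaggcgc
Kcnn4 (chr7:24370013-24370262, plus strand): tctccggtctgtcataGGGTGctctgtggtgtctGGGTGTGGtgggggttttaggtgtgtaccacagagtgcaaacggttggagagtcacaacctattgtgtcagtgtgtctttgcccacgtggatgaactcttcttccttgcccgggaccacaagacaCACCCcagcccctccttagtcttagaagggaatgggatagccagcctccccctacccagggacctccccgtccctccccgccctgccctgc
Nlrc3 (chr16:3976633-3976882, minus strand): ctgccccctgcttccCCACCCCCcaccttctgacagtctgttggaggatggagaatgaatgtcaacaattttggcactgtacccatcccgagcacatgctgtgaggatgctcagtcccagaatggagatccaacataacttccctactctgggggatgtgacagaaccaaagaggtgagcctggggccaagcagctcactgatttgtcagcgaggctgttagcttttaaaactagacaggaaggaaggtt
The Extl1 window lies inside the span annotated for the gene in GENCODE M21 (chromosome 4, 134356372 to 134383850), which has a start further upstream. Amigo2 holds 4 CACCC matches and no GGGNGTGG. Extl1 has 2 of each and E2f2, in the upstream one of its windows, 5 CACCC and 2 GGGNGTGG matches. In Kcnn4 the counts are 3 and 1, and in Nlrc3 1 and 1. All of these examples but Amigo2 hold GGGNGTGG, which 32.7% of the 55 genes did, so in this they are not typical. Among genes with a window, GGGNGTGG was in 5 of 9 called higher at 24h against 12h by the edgeR test below. It was in 4 of 12 called lower. CACCC was in 9 of 9 and 9 of 12. These shares were not tested.

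At 0h most of these genes were expressed at a low level. Their median was 3.55 CPM at 0h and 10.8 CPM at 6h, against 44.4 and 45.3 CPM for the expressed coding genes. At 0h 13 stood under 1 CPM and 14 at 10 CPM or more. The 6h level was 2.01 to 13.0 times that at 0h (on CPM + 0.5), with a median of 2.60. It was at least 4-fold for 15 genes, 3- to 4-fold for 10 and under 3-fold for 48. In bulk RNA, more cells that express a gene and more RNA per cell cannot be told apart. Per kb of exons the highest 6h levels were those of Sidt2 (50.2 CPM per kb), a lysosomal membrane protein, and Ass1 (42.3), which makes argininosuccinate on the way to arginine. Add3 (28.9), a protein of the membrane skeleton, E2f2 (24.6), a cell cycle transcription factor, and the sphingosine 1-phosphate receptor S1pr4 (21.6) came next. The values next to the 2-fold limit were 2.02 for Add3, 2.01 for Plekhg2 and 2.01 for Extl1 inside it. Zfp750, Rap1gap2 and Soat2 lay outside it at 1.99, 1.99 and 1.96.

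Most early risers were higher still at 12h, and none was lower by as much as 1.3-fold. Means were higher at 12h than at 6h for 70 of 73 genes, and both 12h libraries lay above both 6h ones for 65 genes (89.0%), against 34.2% of the 9897 expressed coding genes. In 1 gene, Dsp, both lay below, against 27.1%. A step of at least 1.3-fold without overlap was seen upward in 38 genes (52.1%, beside 3.43% of expressed coding genes) and downward in 0 (beside 0.879%). The 6h libraries helped to choose the genes, so this step has no test. The summed level of the 73 genes was 684 and 689 CPM at 0h, 1706 and 1722 CPM at 6h, 2231 and 2234 CPM at 12h, and 2227 and 2187 CPM at 24h.

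**Figure D1:**
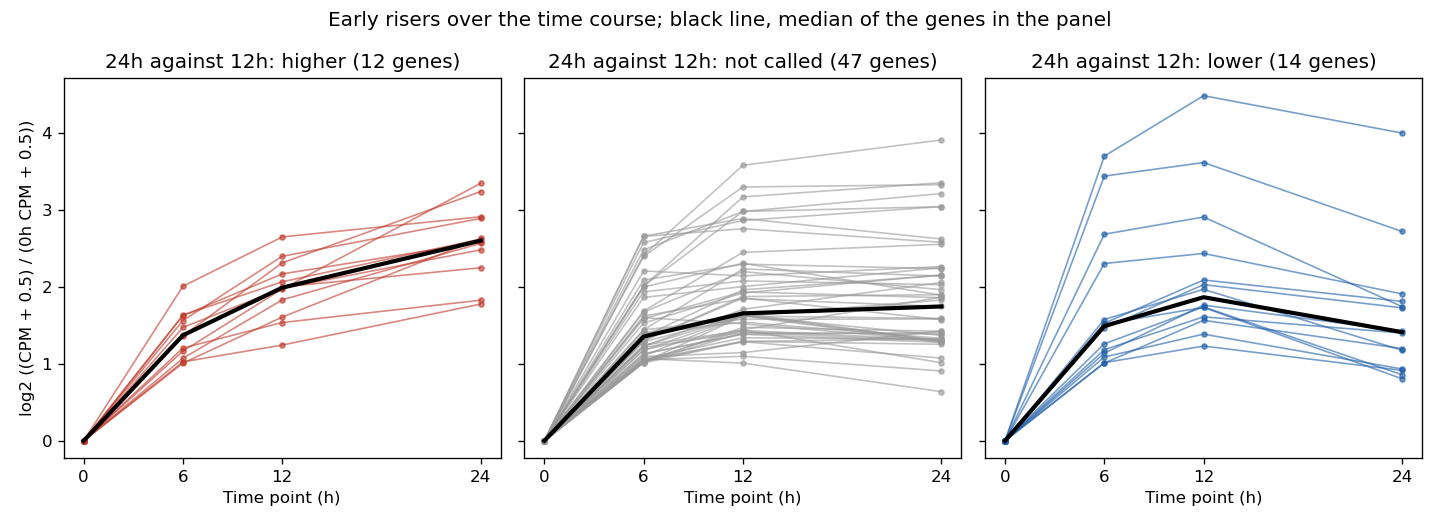
Mean level of each early riser relative to 0h, on the log2 scale of CPM + 0.5, at 0, 6, 12 and 24 h. Panels hold the 12 genes called higher, the 47 not called and the 14 called lower at 24h against 12h, and the black line is the panel's median, which climbs to 24h in the first panel and peaks at 12h in the last.

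Between 12h and 24h the group divided. Neither time enters the rule that chose the genes, so this step was tested, with edgeR's quasi-likelihood test. The fit takes its spread from all 8 libraries. With the 12h and 24h libraries alone it called 14 early risers higher and 17 lower. Over all 13981 genes in that fit, 596 were higher and 636 lower, against 487 and 434 of 14263 with all 8 libraries. Of the 73 genes 12 rose (16.4%) and 14 fell (19.2%) at an adjusted p under 0.05, while 3.41% and 3.04% of all 14263 genes tested did. Among expressed coding genes alone the shares were 3.90% and 4.05%. With a fitted change of at least 1.3-fold as well, 9 early risers were higher and 8 lower, beside 1.23% and 0.75% of all genes and 0.909% and 0.768% of expressed coding genes. Steps of 1.3-fold without overlap were up in 10 and down in 10, beside 1.06% and 0.97%. The other 47 were not called, with log2 changes from -0.47 to 0.47. The median of the group was -0.05, against 0.01 over all genes tested. These counts rested in part on single libraries: without 12h replicate 1 they were 7 higher and 9 lower, without 12h replicate 2 they were 8 and 10, and without 24h replicate 2 they were 9 and 8. DESeq2 called 8 higher and 9 lower, all of them also called by edgeR. Over all 13559 genes to which it gave an adjusted p, it called 194 higher and 223 lower.

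**Figure D2:**
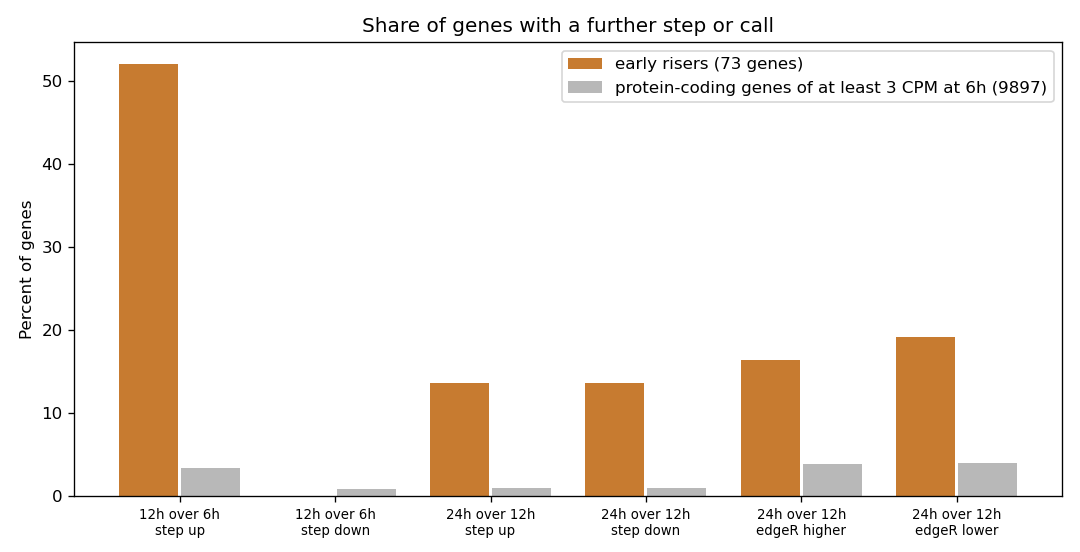
Percent of the 73 early risers (left bars) and of 9897 protein-coding genes of at least 3 CPM at 6h (right bars) with a step of 1.3-fold without overlap of libraries or an edgeR call. At 24h against 12h both directions are more frequent among the early risers, 16.4% higher and 19.2% lower by edgeR.

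Nrbp2, which encodes a pseudokinase, had the highest 6h over 0h fold of the group on CPM + 0.5. Without the 0.5 the ratio of means was 26.5 and below that of Bean1, whose 0h libraries hold only 1 and 3 counts. The gene (ENSMUSG00000075590; mm10, chromosome 15, 76085518 to 76091627, minus strand) stood at 0.392 and 0.490 CPM at 0h, 11.6 and 11.7 CPM at 6h, 20.0 and 21.1 CPM at 12h, and 14.6 and 14.5 CPM at 24h. No libraries of different times overlapped, and the peak was at 12h. Nrbp2 fell at 24h against 12h by 0.50 ± 0.09 on the log2 scale (SE, adjusted p = 0.00021) and at 24h stood 16.0-fold over 0h on CPM + 0.5, or 32.9-fold by the ratio of means.

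Amigo2, the other marker of the group, encodes a cell surface adhesion protein and followed another course. It lies on chromosome 15 too (97244125 to 97247287, minus strand). Its levels were 2.30 and 2.67 CPM at 0h, 14.9 and 15.5 CPM at 6h, 29.9 and 27.8 CPM at 12h, and 28.3 and 30.6 CPM at 24h. The 12h libraries stood above the 6h ones, while those of 24h and 12h overlapped. The change at 24h against 12h was 0.03 ± 0.07 (adjusted p = 0.87), which leaves the direction unsettled.

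Genes of metabolism included several that rose further. The grouping by role was made after the values were seen, so the counts by role describe the genes and support nothing. Of 10 such genes 7 rose at 24h against 12h, 0 fell (1 at an unadjusted p under 0.05, 0 by DESeq2) and 3 were not called by edgeR, with a median log2 change of 0.53. Over all 73 genes 16.4% rose and 19.2% fell, and over all genes tested 3.41% and 3.04%. Cth (chromosome 3, 157894248 to 157925077, minus strand) makes cysteine from cystathionine. It stood at 6.42 and 6.23 CPM at 0h, 13.8 and 15.8 CPM at 6h, 26.4 and 26.1 CPM at 12h, and 67.9 and 69.8 CPM at 24h. Each time lay above the one before, and the rise at 24h against 12h was 1.39 ± 0.07 (adjusted p = 3.1e-18), the largest of the 73. On CPM + 0.5 its 24h level was 10.2-fold that at 0h, while at 6h it had been 2.24-fold.

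The mitochondrial folate enzyme gene Aldh1l2 had 51.1 and 50.3 CPM at 24h, against 30.9 and 29.7 CPM at 12h. It rose by 0.75 ± 0.06 (adjusted p = 9.7e-11), with no overlap. Slc6a9, a glycine transporter gene, had 28.4 and 26.5 CPM at 24h, against 16.8 and 20.2 CPM at 12h, a rise of 0.57 ± 0.09 (adjusted p = 2.0e-05). Exons of both genes overlap a gene on the other strand, D10Wsu102e for Aldh1l2 over 14.1% of its exon length and Ccdc24 for Slc6a9 over 27.8%. The strand setting of the counting is not given. Reads on exons of both genes may have been set aside as ambiguous, or given to the wrong gene. D10Wsu102e had 13409 counts in the 8 libraries, against 5153 for Aldh1l2, and Ccdc24 had 13, against 3063 for Slc6a9. Slc1a4, which carries serine and alanine, had 72.4 and 66.7 CPM at 24h, against 47.6 and 48.2 CPM at 12h, and rose by 0.54 ± 0.06 (adjusted p = 2.2e-08).

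Ass1 rose by 0.25 ± 0.04 (adjusted p = 0.00020), to 186 and 188 CPM at 24h, against 155 and 160 CPM at 12h. G0s2, an inhibitor of the lipase that breaks down stored fat, had 23.6 and 20.6 CPM at 24h, against 13.8 and 17.2 CPM at 12h. It rose by 0.52 ± 0.10 (adjusted p = 0.00047), although its libraries within a time differed more than those of Ass1. Extl1, a glycosyltransferase gene related to heparan sulfate synthesis, had been at the edge of the 2-fold limit at 6h. It reached 25.9 and 24.8 CPM at 24h, against 11.4 and 13.0 CPM at 12h, a rise of 1.05 ± 0.09 (adjusted p = 8.6e-11). The 3 genes not called were Fah, of tyrosine breakdown (0.38, adjusted p = 0.12), Acacb, an acetyl-CoA carboxylase (-0.28, adjusted p = 0.33), and Fads3, of the fatty acid desaturase family (-0.47, adjusted p = 0.094).

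Of the list of ATF4 and integrated stress response genes, 4 of 47 tested were early risers: Cth, Aldh1l2, Slc6a9 and Nupr1. Trib3 (4.16-fold at 6h) and Slc7a11 (2.93-fold) met the conditions too and were left out by name. The conditions were met by 0.859% of expressed coding genes. Membership rests on the 0h and 6h values, and this list and those below were chosen with earlier results of these data known. The number of early risers on a list is therefore a description and supports nothing. Nupr1, a small stress-induced chromatin protein, had 27.6 and 31.5 CPM at 24h, against 25.2 and 24.9 CPM at 12h. Both 24h libraries were above the 12h ones, but the change of 0.24 ± 0.08 missed the threshold (adjusted p = 0.059). Of the 43 other genes on the list, Trib3 and Slc7a11 included, 35 rose, 0 fell and 8 were not called by edgeR at 24h against 12h (of all 47, 0 were lower at an unadjusted p under 0.05 or by DESeq2), beside 3.41% of all genes that rose. Their median log2 change was 0.24, against 0.01 over all genes tested. Among them were the arginine and lysine transporter gene Slc7a3 (1.31), the lipoprotein receptor gene Vldlr (1.09) and Ddit3 (0.69), a stress-induced transcription factor, each with a fitted rise over 1.3-fold. No early riser is on the other lists examined, but Itgb7, on the list of KLF2 or KLF4 targets, met the conditions (2.37-fold at 6h) and was left out by name. Of 19 immediate early genes tested 5 rose and 0 fell by edgeR (3 lower at an unadjusted p under 0.05, 0 by DESeq2), with a median log2 change of 0.13. Of 8 ERK feedback genes 0 rose and 0 fell (0 and 1 at an unadjusted p under 0.05, 0 and 0 by DESeq2), with a median of 0.03. Among p53 targets 1 rose and 4 fell of 17 (median -0.03), among TGF-beta and SMAD targets 1 and 1 of 14 (median 0.06), and among genes reported elsewhere as KLF2 or KLF4 targets 1 and 3 of 8 (median -0.20). By DESeq2 the numbers higher and lower were 1 and 4, 0 and 1, and 1 and 2 in the same order. Over all genes tested 3.41% rose and 3.04% fell by edgeR.

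**Figure D3:**
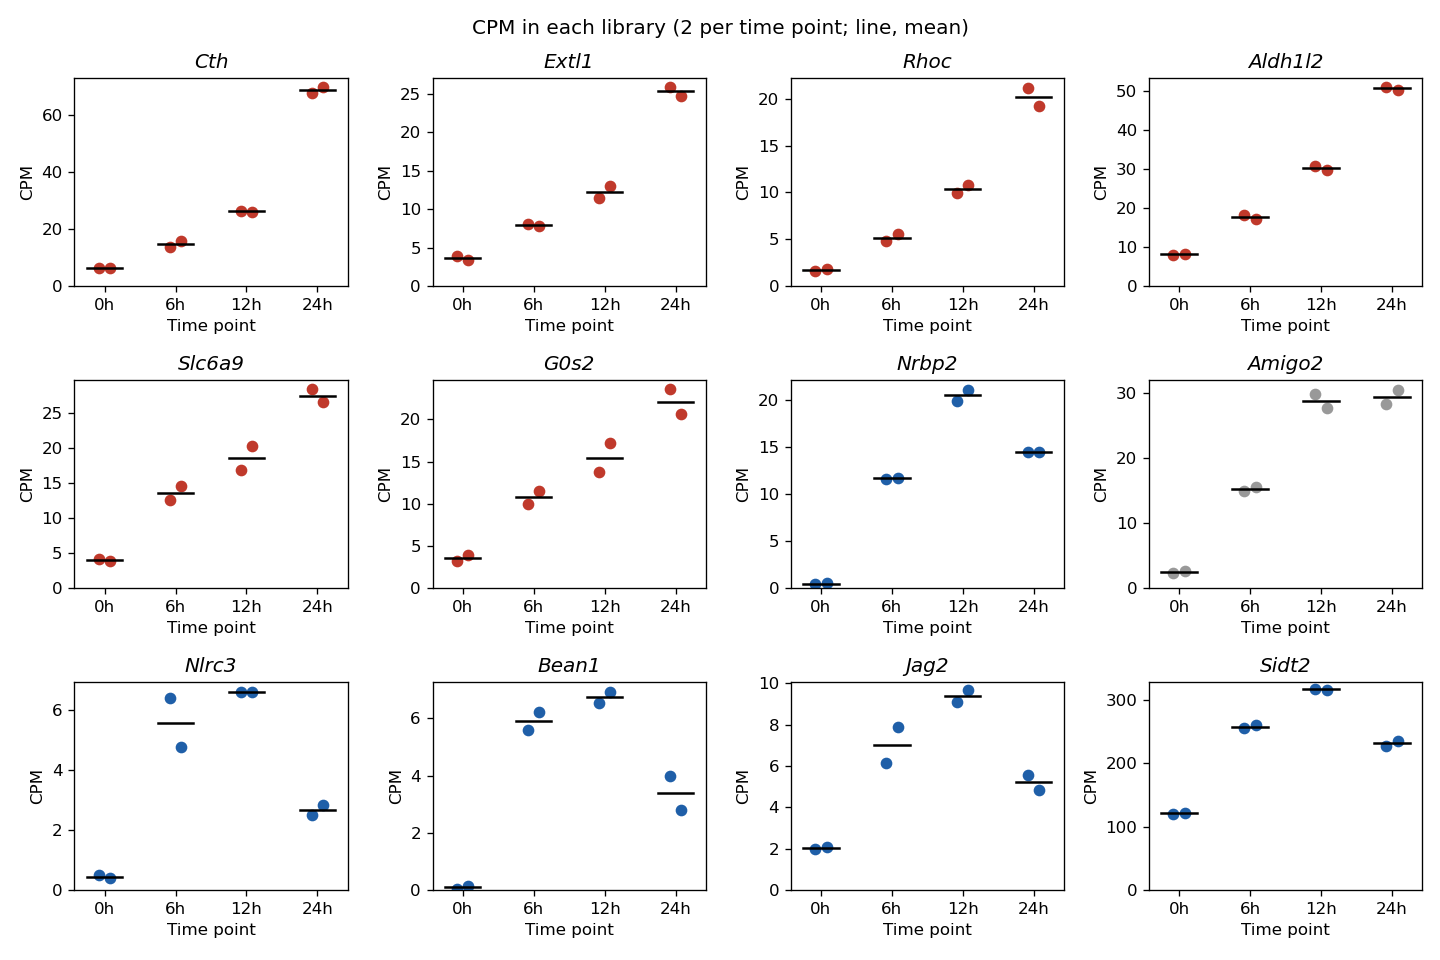
CPM in each of the 8 libraries for 12 early risers, with points for libraries, a line for the mean of 2 and a linear axis from 0. Cth, Extl1, Rhoc, Aldh1l2, Slc6a9 and G0s2 climb to 24h, Amigo2 levels off, and Nrbp2, Nlrc3, Bean1, Jag2 and Sidt2 are lower at 24h than at 12h.

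Genes of the cell surface and the matrix went both ways. Of 10 surface adhesion, guidance and matrix genes 2 rose, 2 fell and 6 were not called, while 16.4% of the early risers rose and 19.2% fell. Among 9 signalling, receptor and channel genes Fyn rose and Nlrc3 fell, and among 8 transcription and chromatin genes E2f2 fell and 0 rose by edgeR (2 at an unadjusted p under 0.05, 0 by DESeq2). Rhoc (chromosome 3, 104788375 to 104794459, plus strand) is a gene of cell motility. It stood at 1.57 and 1.82 CPM at 0h, 4.77 and 5.52 CPM at 6h, 9.96 and 10.8 CPM at 12h, and 21.2 and 19.2 CPM at 24h. No libraries of different times overlapped. The fold was 2.57 at 6h over 0h and 1.93 at 12h over 6h, and the last rise was 0.96 ± 0.10 (adjusted p = 1.0e-08).

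Plxdc1, a plexin domain protein of the cell surface, rose by 0.53 ± 0.14 (adjusted p = 0.013), with 8.41 and 8.61 CPM at 24h, against 5.87 and 5.94 CPM at 12h. Plxnb2, a semaphorin receptor gene, had 9.10 and 9.68 CPM at 24h, against 7.36 and 6.49 CPM at 12h, a rise of 0.44 ± 0.13 (adjusted p = 0.039). Hip1, of clathrin coats and actin, rose by 0.30 ± 0.08 (adjusted p = 0.013). The Src family kinase gene Fyn rose by 0.27 ± 0.08 (adjusted p = 0.029), with 39.8 and 33.6 CPM at 24h, against 29.8 and 31.2 CPM at 12h. In none of these 4 genes did the libraries overlap, but DESeq2 did not call them.

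Some genes had a further large step between 6h and 12h. Tnxb, the matrix protein tenascin X, had 10.1 and 10.2 CPM at 12h, against 4.20 and 4.28 CPM at 6h, a fold of 2.25 on CPM + 0.5. Tppp3, a microtubule-associated protein gene, had 13.8 and 13.5 CPM at 12h, against 6.45 and 5.25 CPM at 6h, and the myelin membrane protein gene Pmp22 11.5 and 12.3 CPM, against 6.06 and 5.60 CPM. For these 3 genes and for Rhoc, Amigo2, Plxdc1, Cth and Ndrg1, which responds to hypoxia and stress, the 12h over 6h fold was 1.73 to 2.25, the 8 highest of the group. At 24h against 12h Tnxb changed by 0.35 ± 0.11 (adjusted p = 0.055), Tppp3 by 0.19 ± 0.12 (adjusted p = 0.37), Pmp22 by 0.07 ± 0.12 (adjusted p = 0.82) and Ndrg1 by -0.09 ± 0.09 (adjusted p = 0.64), none of them past the threshold.

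The largest fall in fold after 12h was that of Nlrc3, an NLR family protein known to dampen innate immune signalling. The gene (chromosome 16, 3945007 to 3976632, minus strand) stood at 0.490 and 0.401 CPM at 0h, 6.40 and 4.75 CPM at 6h, 6.60 and 6.58 CPM at 12h, and 2.5 and 2.83 CPM at 24h. Both 24h libraries were below those of 6h and 12h and above those of 0h. Nlrc3 fell by 1.3 ± 0.18 on the log2 scale at 24h against 12h (adjusted p = 2.0e-06), and its 24h level was 3.35-fold that at 0h on CPM + 0.5, or 5.98-fold by the ratio of means.

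Cnih2, an auxiliary subunit of AMPA receptors, had 2.34 and 2.30 CPM at 24h, against 4.64 and 5.08 CPM at 12h. It fell by 1.06 ± 0.19 (adjusted p = 0.00021), to 1.75-fold over 0h on CPM + 0.5. Hspa12b, a distant relative of HSP70 known from endothelium, fell by 1.01 ± 0.20 (adjusted p = 0.00066), with 2.46 and 2.13 CPM at 24h, against 4.26 and 5.04 CPM at 12h. Bean1, a membrane protein that binds the ubiquitin ligase NEDD4, had the second highest fold at 6h. Its levels were 0.0490 and 0.134 CPM at 0h, from 1 and 3 counts, 5.59 and 6.22 CPM at 6h, 6.56 and 6.92 CPM at 12h, and 3.99 and 2.79 CPM at 24h, a fall of 0.98 ± 0.17 at the last step (adjusted p = 0.00013).

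Jag2, a Notch ligand, had 5.57 and 4.84 CPM at 24h, against 9.11 and 9.65 CPM at 12h, and fell by 0.84 ± 0.14 (adjusted p = 6.8e-05). Cavin1, a coat protein of caveolae, fell by 0.58 ± 0.18 (adjusted p = 0.040), a call that DESeq2 did not make. Sidt2 was the most abundant early riser, and its fall was small but tight, with 228 and 236 CPM at 24h, against 318 and 316 CPM at 12h. It fell by 0.45 ± 0.04 (adjusted p = 2.3e-10). The remaining 6 falls were of 0.21 to 0.37: Plekhg2, the envoplakin gene Evpl, Paqr4, the adhesion gene L1cam, the focal adhesion gene Tns1 and E2f2. Of these, DESeq2 did not call Evpl, L1cam, Paqr4 and Plekhg2.

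**Figure D4:**
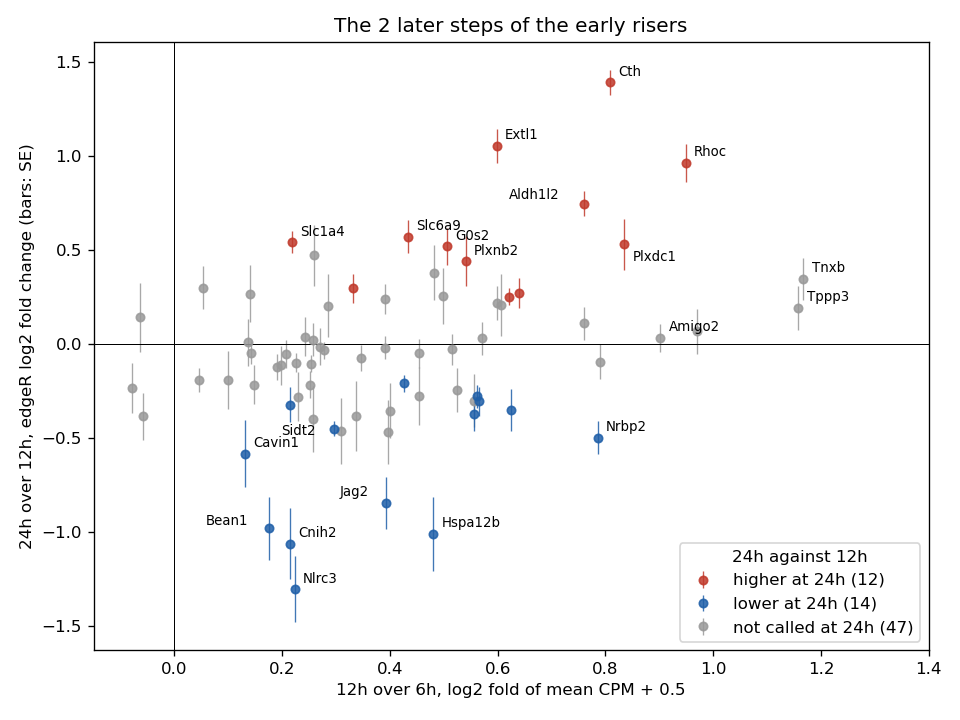
The 12h over 6h fold of mean CPM + 0.5 (horizontal) and edgeR's 24h over 12h fold change with its SE (vertical) for the 73 early risers, both on the log2 scale. Only 3 genes lie left of 0, and the 12 called higher (red) and 14 called lower (blue) lie above and below 0 on the vertical axis, from Cth at the top to Nlrc3 at the bottom.

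By steps of 1.3-fold without overlap, 27 genes had none at either step (Hip1 and Paqr4 among them were called by edgeR, and the 24h over 6h fold ran from 0.743 to 1.54), 26 were up at 12h and flat at 24h, and 8 were up at both. Of the others 6 were flat and then down, 4 up and then down and 2 flat and then up. Among expressed coding genes 94.3% had no step at either, 2.88% were up and then flat, and 0.414% were up at both. The shares flat and then down, up and then down, and flat and then up were 0.758%, 0.131% and 0.596%. The 3 genes with a lower mean at 12h than at 6h were Dsp, the desmosome protein desmoplakin (0.947-fold), the phosphatase-like Pald1 (0.956-fold) and the microtubule-binding kinase gene Dclk2 (0.961-fold). Next came the G protein subunit gene Gna15 (1.03-fold), the NF-kappa-B cofactor gene Bcl3 (1.04-fold), Lrrc3 (1.07-fold), Cavin1 (1.09-fold) and the adaptor gene Dok4 (1.10-fold). Of the 10 genes with the highest 6h fold, Amigo2 and Tnxb, given above, had no call at 24h against 12h. The calpain gene Capn5 (-0.28), Lrrc3 (-0.19), the corepressor gene Hr (0.20) and the receptor phosphatase gene Ptprf (0.26) had none either. Ptprf had a step up at 12h over 6h (1.41-fold). S1pr4 had 57.1 and 52.7 CPM at 24h and 57.3 and 56.2 CPM at 12h, and Kcnn4, a calcium-activated potassium channel gene, 35.7 and 30.8 against 33.5 and 35.8 CPM, with libraries that overlapped in both.

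All 73 early risers still stood above 0h at 24h, with both 24h libraries above both 0h ones. The rule had chosen genes whose 0h libraries lay below those of 6h. The share of all expressed coding genes above 0h at 24h was not counted. The 24h mean was above the 6h mean in 55 genes and below it in 18. Both 24h libraries were above both 6h ones in 51 genes (69.9%, beside 35.5% of expressed coding genes). In 11 both 24h libraries were below both 6h ones (15.1%, beside 30.8%): Bean1, Nlrc3, Cavin1, Dsp, Jag2, Cnih2, Hspa12b, Sidt2, Dclk2, Gna15 and Paqr4. Of these, 6 stood under 2-fold over 0h at 24h on CPM + 0.5, namely Cnih2, Hspa12b, Sidt2, Dclk2, Gna15 and Paqr4. By the ratio of means Cnih2 (2.08) and Hspa12b (2.20) were above 2. The mean level was highest at 12h for 40 genes, at 24h for 31 and at 6h for 2, Dsp and Dclk2, while Klf4 was highest at 6h. All these values share the 0h and 6h libraries that chose the genes. For the means and the highest times no share of expressed coding genes was counted.

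The early risers were ordinary in size but rich in G and C. Their median exon length was 4836 bases and their median span 25240 bases, against 4623 and 24302 bases for expressed coding genes. The G and C content of the longest transcript had a median of 56.7%, against 49.5%. With a correction for G and C content and length the calls at 24h against 12h numbered 14 higher and 15 lower, and included all 12 and 14 of the uncorrected fit. Over all 14212 genes in the corrected fit 604 were higher and 528 lower, against 487 and 434 of 14263 without the correction. Chromosome 7 held 10 of the genes (13.7%, beside 7.59% of expressed coding genes) and chromosome 10 held 8 (11%, beside 4.93%). S1pr4 and Gna15 lie 2.17 kb apart on chromosome 10, with no expressed coding gene between them. Exons of 26 genes overlapped another annotated gene, over at least 10% of the exon length in 8 (Aldh1l2, Dok4, Nkx6-2, Paqr4, Sidt2, Slc6a9, Sned1 and Ticam2). Their values may lack reads set aside as ambiguous, or hold reads of the other gene.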

How the data were processed

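RNA-seq counts of 8 libraries, 2 each at 0h, 6h, 12h and 24h, were analysed. The authors deposited raw counts per Ensembl gene, per the submitters' processing notes, which name HTSeq 2.0.3, SAMtools 1.3, STAR and the build mm10. The sources used here do not give the STAR version, annotation release or strand setting. The 5 summary rows per file were left out of library sizes (no-feature fragments made up 5.25% to 9.27% and ambiguous ones 5.00% to 5.50%), and 46574 of 47069 gene IDs matched GENCODE M21. CPM use the libraries' own totals. Counts passing filterByExpr (14263 genes) were tested with edgeR 4.0.16 in R 4.3.3 (TMM, 1 quasi-likelihood fit over all 8 libraries, 4 residual degrees of freedom, two-sided, Benjamini-Hochberg over all genes tested, threshold 0.05). The SE is the absolute log2 change divided by the square root of F. Alternatives included DESeq2 1.42.0. The code was tested on simulated data. Promoter sequences are RefSeq's (GRCm38.p6).

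Members, gene lists and tests were chosen with earlier results of these data known. The genes named are Nrbp2, Amigo2, the highest folds at 6h, the highest and lowest at 12h over 6h, the largest calls at 24h against 12h, the highest levels per kb, those next to the 2-fold limit and members on a list. Others were named after their values were seen. The counts of 1 marker list and 1 group of roles are not reported here. Counting limits cover counting error only.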

Additional observations from a re-analysis of the deposited data

How the results depend on the processing

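Calls at 24h against 12h were recomputed under 15 alternatives. The labels give no meaning to the replicate numbers, and replicate 1's deviations correlated between times by -0.02 to 0.02. With a replicate block the fit called 12 early risers higher and 13 lower, Evpl being lost, and over all genes 450 higher and 386 lower. DESeq2 size factors changed no call of the group. Leaving out 1 library in turn gave 7 to 14 early risers higher and 8 to 17 lower, and over all genes 224 to 632 higher and 149 to 658 lower. DESeq2 called 9 early risers lower, and 194 genes higher and 223 lower over all. Without a filter on low counts 41.4% of all calls were higher, against 52.9%. No early riser changed direction with a call, and 43 of 1095 pairs of gene and alternative lost a call while 26 gained one. The rule itself gave 119 genes with a 6h mean of at least 1 CPM, 39 with at least 10 CPM, and 39 at a fold of 2.5. On TMM-scaled libraries it gave 65, all among the 73. Steps up at 12h numbered 17 at 1.5-fold and 33 on TMM-scaled libraries, and steps down 0 under each alternative. With 2 libraries a time, changes of genes near 3 CPM are known only roughly, as their SEs show.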
